A study of Rattus norvegicus with 9 samples.

Results

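The frontal cortex of maternally separated rats that had received electroacupuncture (EA) as adults was compared with that of maternally separated rats that had not. The comparison takes in all genes of the 3 MS+EA rats (C3, C10 and C16) and the 3 MS rats (B3, B4 and B6), which are 6 of the 9 rats of the study. The deposited count table lists 37209 genes, of which 25130 had a read in at least 1 of these 6 rats and 16837 had enough reads to be tested. The question it answers is which genes, functions and cell types differed between treated and untreated animals with the same early life history.

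All 6 animals were male Wistar rats aged 14 weeks whose mothers had been moved to another cage for 4 h a day from postnatal day (PND) 1 to PND 21. The MS+EA rats were then given EA, in which a current is passed through acupuncture needles, at the head points GV20 (Baihui) and GV29 (Yintang) every other day from PND 61 to PND 81 under anaesthesia. The MS rats and the undisturbed Control rats (A1, A2 and A6) had the anaesthesia without needles, and no sham-EA rats were sequenced, so needling, current and handling cannot be told apart here. The labels name no litter, batch or hour of tissue removal, and the tissue is 1 region, the frontal cortex, taken once from each rat. Control values are given beside the main genes as a reference level. Total RNA had been depleted of ribosomal RNA before sequencing.

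The MS libraries held between 16106381 and 17243320 counts and the MS+EA libraries between 12479905 and 14913736, so that depth moved with the group. Genes that define cortical neurons and glia were expressed in all 6 rats, and 9 of the 13 hypothalamic markers had too few reads to be tested. The MS rat B4 stood apart in marker genes of neighbouring tissue. Its summed level of 15 meningeal fibroblast genes was 869 CPM (counts scaled to a common library size) against 142 and 232 CPM in the other MS rats and 325, 144 and 522 CPM in the MS+EA rats. B4 also held 503 reads of Avp and 258 of Oxt, the hypothalamic peptides vasopressin and oxytocin, against at most 27 and 14 reads in each of the other 5 rats. Other genes counted almost wholly in 1 rat were LOC100911326 in B4, with 165 reads, LOC103689971 and LOC102552913 in C10, with 147 and 234 reads, and Ndst4, a heparan sulfate enzyme, with 385 reads in C3, although 2 Control rats held 511 and 319 reads of it. Counts of differing genes that depend on a rat are therefore given with and without it where the rule stated below applies. Smaller counts were not all treated so and can also depend on 1 rat.

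In the brain, as in other tissues, a molecular clock keeps daily time. The activators CLOCK and BMAL1 (the product of Arntl) bind E-boxes in the genes of their own repressors, the period, cryptochrome and REV-ERB proteins, and in output genes such as Dbp. REV-ERB proteins in turn bind the Arntl promoter and hold it down, so that Arntl peaks at roughly the opposite time of day to the period and REV-ERB genes. In the cortex the clock follows the light cycle, feeding and glucocorticoid rhythms, and the level of its genes depends in part on its phase at the moment of sampling. The hour of tissue removal is not given for these rats, and the part of phase in the differences below was not tested.

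By edgeR's quasi-likelihood test with Benjamini-Hochberg adjustment, 3 genes were upregulated in MS+EA relative to MS rats past an adjusted p of 0.05 and a 1.5-fold change, which is 0.0178% of the genes tested. These were Hist2h4a and the clock genes Dbp and Per3. The number downregulated was 0 (0.0% of the genes tested) by edgeR. DESeq2 called 8 genes upregulated, among them Dbp, Per2, Per3 and Sulf1, and 6 downregulated, namely Adra1b, Agt, Arntl, Egr3, Klhdc7a and Parvb. At the looser limit of an unadjusted p under 0.05, by which lists of genes are described here, 1012 genes (6.01%) were higher and 1081 (6.42%) were lower in MS+EA rats. That split depended on scaling, since 48.4% of these genes were higher as normalized here, 61.1% when library sizes were taken over mRNA genes, and 70.1% when total counts were used. All 3 MS+EA rats lay above all 3 MS rats for 1392 genes (8.27%) and below them for 1616 genes (9.6%). The shares over all genes tested are the reference for every list below. A refit without B4 gave 811 higher and 628 lower. For lists with at least 3 genes past that limit in a direction, the numbers without a rat are given, higher first and counted over the genes tested with all rats, wherever they differ by more than 1.5 times. The p-values measure the spread among these rats only.

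Of the 3 upregulated genes 2 belong to the molecular clock. Of 25 clock genes tested, 7 (28.0%) were higher and 2 (8.0%) lower in MS+EA rats at an unadjusted p below 0.05. Over all genes tested these shares were 6.01% and 6.42%. The clock numbers were equal when B4 was left out and 7 and 5 without C10. The groups did not overlap for 13 clock genes. The MS+EA rats lay above for 6 (24.0%) and below for 7 (28.0%), against 8.27% and 9.6% of all genes tested. The study itself named Dbp, Per2, Per3 and Arntl for these rats, so they are not an independent choice.

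Several clock genes carry recognisable control elements just upstream of their start. The 5 upstream stretches shown are those, among clock genes at an unadjusted p under 0.05, that hold a motif searched. Each is the 250 bases before the annotated start, from RefSeq, on build GRCr8 (the counts were made on Rnor_6.0), read 5′ to 3′ along the gene. Capitals mark the E-box CACGTG in Ciart, Nr1d1 (its promoter 2) and Bhlhe41, the D-box TTATGTAA, an element bound by DBP, in Per2, and the REV-ERB and ROR element TAGGTCA in Arntl.
Ciart, chr2:186112247-186112496, minus strand: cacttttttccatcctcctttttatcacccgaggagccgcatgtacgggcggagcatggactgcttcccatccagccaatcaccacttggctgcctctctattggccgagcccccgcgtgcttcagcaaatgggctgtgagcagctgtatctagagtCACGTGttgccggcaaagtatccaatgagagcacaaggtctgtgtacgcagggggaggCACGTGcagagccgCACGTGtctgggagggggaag
Nr1d1, chr10:84229455-84229704, minus strand: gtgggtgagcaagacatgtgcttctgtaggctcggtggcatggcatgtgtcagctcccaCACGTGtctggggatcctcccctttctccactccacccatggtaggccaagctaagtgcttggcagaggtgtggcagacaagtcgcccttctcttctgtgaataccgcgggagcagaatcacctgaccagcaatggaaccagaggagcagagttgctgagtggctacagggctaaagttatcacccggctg
Bhlhe41, chr4:180569356-180569605, minus strand: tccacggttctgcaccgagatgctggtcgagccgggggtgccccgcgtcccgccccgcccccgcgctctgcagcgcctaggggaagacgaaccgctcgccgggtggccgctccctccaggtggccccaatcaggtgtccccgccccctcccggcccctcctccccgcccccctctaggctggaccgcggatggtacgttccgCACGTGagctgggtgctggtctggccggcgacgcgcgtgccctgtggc
Per2, chr9:99496994-99497243, minus strand: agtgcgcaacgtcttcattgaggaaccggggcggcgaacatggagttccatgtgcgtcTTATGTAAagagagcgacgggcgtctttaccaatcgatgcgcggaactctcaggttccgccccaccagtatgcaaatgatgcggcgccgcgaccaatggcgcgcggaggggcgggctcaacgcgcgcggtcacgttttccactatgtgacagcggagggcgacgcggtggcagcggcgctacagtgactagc
Arntl, chr1:176766078-176766327, plus strand: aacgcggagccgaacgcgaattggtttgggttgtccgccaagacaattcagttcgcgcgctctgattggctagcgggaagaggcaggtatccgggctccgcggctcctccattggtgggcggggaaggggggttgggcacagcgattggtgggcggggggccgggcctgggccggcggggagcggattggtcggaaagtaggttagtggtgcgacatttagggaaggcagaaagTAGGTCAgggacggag

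The motifs were searched on both strands of the 300 bases from 250 before to 50 after each start, and a match is a description of the letters there, not a measured binding site. CACGTG, a palindrome, was present in 6.42% of 33469 promoters, and among the 22 clock genes with a promoter in the reference it was present in Bhlhe40, Bhlhe41, Ciart, Nr1d1 and Tef. The Ciart promoter held 3 copies, beginning 93, 35 and 21 bases before the start, and 19 promoters of all (0.0568%) held 3 or more. TTATGTAA was present in 0.893% of promoters and, among the clock genes, in Per2. The other D-box form searched, TTACGTAA, was in 0.12% of promoters and in no clock gene. TAGGTCA, which was added to the search after the expression values had been seen, was in 2.63% of promoters and, among the clock genes, in Arntl. It overlaps none of the other motifs printed. Dbp, Per3, Nr1d2 and Nfil3 also passed the looser limit and held none of the motifs searched in this window.

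Among the outputs of the clock, Dbp encodes a transcription factor that passes the rhythm on to other genes. Values are given for the rats in the order B3, B4 and B6 (MS), C3, C10 and C16 (MS+EA) and A1, A2 and A6 (Control), in CPM after normalization for library size. Dbp was at 62.9, 60.04 and 60.8 CPM in the MS rats, 99.9, 102 and 132 CPM in the MS+EA rats and 97.6, 83.4 and 110.1 CPM in the Control rats. Each MS+EA rat and each Control rat lay above every MS rat, and the 3 MS rats were close together. Dbp rose 1.81-fold from MS to MS+EA (log2 fold change 0.86, SE 0.115, edgeR adjusted p = 0.047). With each rat left out in turn its adjusted p lay between 0.0355 and 0.171, and the call held without C3 or C10 and was lost without B3, B4, B6 or C16. Tef, a related output factor, overlapped between the groups (log2 fold change 0.00, edgeR adjusted p = 0.99).

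The 10 repressors of the loop had a median log2 fold change of 0.38, against 0.00 over all genes tested. At an unadjusted p under 0.05, 6 of them were higher and 0 lower, with or without any 1 of the 6 rats. Per3, a period gene, was at 44.03, 39.3 and 39.7 CPM in MS rats, 77.3, 60.98 and 72.5 CPM in MS+EA rats and 52.4, 57.6 and 66.2 CPM in Control rats. The MS+EA rats lay above the MS rats without overlap, and 2 of them also lay above every Control rat. Per3 rose 1.71-fold (log2 fold change 0.77, SE 0.108, edgeR adjusted p = 0.047), and its adjusted p lay between 0.0205 and 0.203 when single rats were left out. Per2, another period gene, was at 55.05, 58.4 and 59.5 CPM in MS rats, 86.2, 79 and 115 CPM in MS+EA rats and 63.5, 75.4 and 103 CPM in Control rats. For Per2 the treated rats lay above the untreated ones, but the difference did not pass the adjusted threshold (log2 fold change 0.70, SE 0.165, edgeR adjusted p = 0.197). Per1, the period gene that also responds to neuronal activity and glucocorticoids, overlapped between the groups (log2 fold change 0.32, edgeR adjusted p = 0.556).

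The REV-ERB genes Nr1d1 and Nr1d2 encode the nuclear receptors that repress Arntl. Nr1d2 was at 122, 122 and 138 CPM in MS rats, 165, 182 and 196 CPM in MS+EA rats and 137, 149 and 149.6 CPM in Control rats (log2 fold change 0.51, SE 0.079, edgeR adjusted p = 0.0938). Nr1d1 was at 61.3, 61.04 and 63.4 CPM in MS rats, 93.5, 79.7 and 72.3 CPM in MS+EA rats and 91.7, 80.8 and 84.8 CPM in Control rats (log2 fold change 0.40, SE 0.0916, edgeR adjusted p = 0.184). Neither gene overlapped between MS and MS+EA rats, and neither passed the adjusted threshold. Ciart, also called Chrono, encodes a repressor of CLOCK and BMAL1 and carries the 3 E-boxes shown above. It was at 5.77, 4.57 and 5.47 CPM in MS rats, 8.603, 14.7 and 14.6 CPM in MS+EA rats and 7.92, 9.82 and 14.5 CPM in Control rats. This was the largest log2 fold change of the clock list (log2 fold change 1.26, SE 0.251, edgeR adjusted p = 0.184), with all treated rats above all untreated ones. Bhlhe41, a repressor that binds E-boxes itself, had a log2 fold change of 0.36, edgeR adjusted p = 0.274. The remaining repressors, Per1, Cry1, Cry2 and Bhlhe40, did not pass the looser limit, with log2 fold changes of 0.32, -0.22, -0.07 and 0.04. Of these, Cry2 was lower in all treated rats than in all MS rats.

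Among the activators, Arntl pointed the other way. The list of 6 genes, activators with their regulators and the repressor Nfil3, had a median log2 fold change of -0.17. Of these, 2 were lower and 0 higher at an unadjusted p under 0.05, and Arntl was the only activator among them. Arntl was at 53.4, 56.1 and 57.5 CPM in MS rats, 39.2, 29.2 and 27.3 CPM in MS+EA rats and 47.6, 42.7 and 37.7 CPM in Control rats. The order was the reverse of that for Dbp, with each MS rat above every rat of the other groups. Its log2 fold change missed the adjusted threshold over all rats (log2 fold change -0.80, SE 0.128, edgeR adjusted p = 0.0938) and lay between -0.97 and -0.70 when single rats were left out, passing the threshold without C3 (edgeR adjusted p = 0.0141). Nfil3, which represses the genes that DBP activates, was the other lower gene (log2 fold change -0.54, SE 0.211, edgeR adjusted p = 0.329), again without overlap. Clock and Npas2, the partners of BMAL1, had log2 fold changes of -0.13 and -0.13 and did not pass. Npas2 was nevertheless lower in all treated rats than in all MS rats. Of the 7 genes that control the turnover of clock proteins, 0 passed in either direction, although 3 of them were lower in all treated rats.

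**Figure D1:**
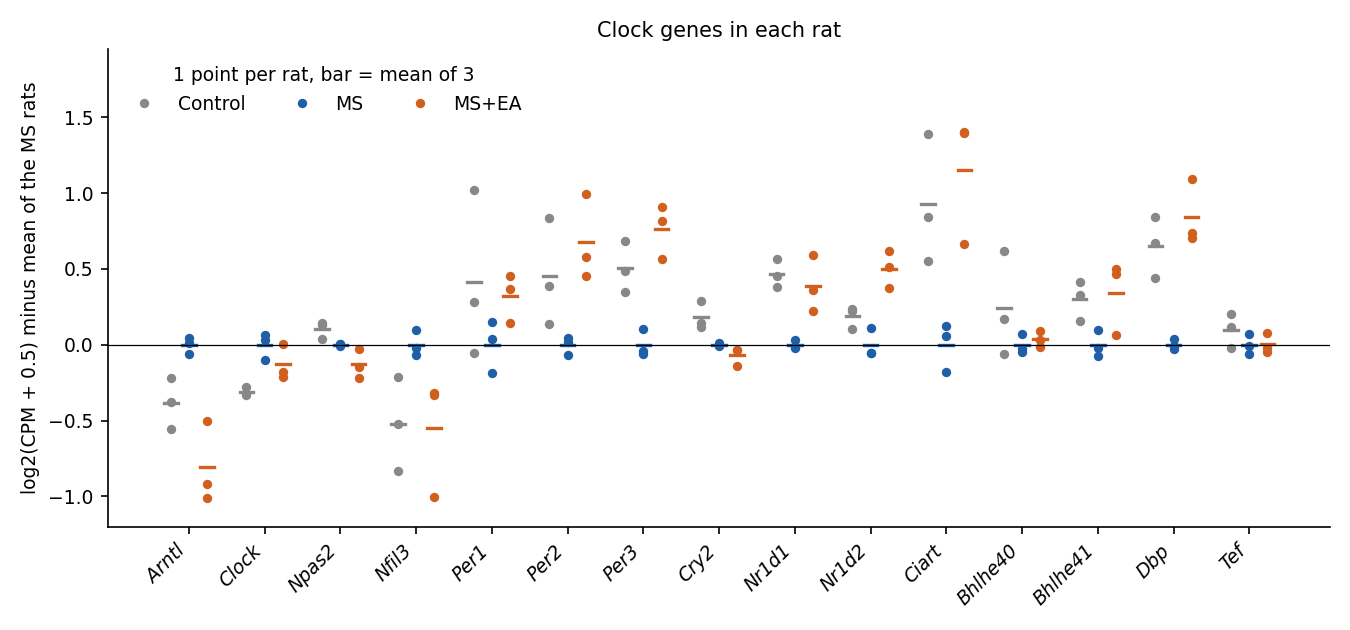
Clock genes in each rat, as log2(CPM + 0.5) minus the mean of the MS rats on the vertical axis, with a point per rat for Control, MS and MS+EA. Short bars are means of 3 rats. The MS+EA points of Dbp, Per3, Per2, Nr1d1, Nr1d2 and Ciart lie above all MS points. Those of Arntl and Nfil3 and, by smaller amounts, Npas2 and Cry2 lie below them.

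Hist2h4a, a gene for histone H4, had the largest log2 fold change of the 3 upregulated genes. It had 0, 1 and 0 reads in the MS rats, 182, 145 and 127 reads in the MS+EA rats and 1, 0 and 0 reads in the Control rats. All but 2 of its reads over the 9 rats came from the treated rats, and its mean was at least 59.7-fold higher in MS+EA than in MS rats, with the latter taken at a detection floor of 3 counts per library (edgeR adjusted p = 8.68e-06). DESeq2 gave it no adjusted p. Hist2h4, another gene for the same protein, had 549, 544 and 488 reads in the MS rats, 508, 422 and 406 in the MS+EA rats and 889, 643 and 673 in the Control rats (log2 fold change 0.01). Histone H4 genes are nearly identical in sequence, and how the authors' counting shared reads among them is not given in the sources used here, so the value of Hist2h4a alone is uncertain. Of the reads on both genes together, Hist2h4a held 26.4%, 25.6% and 23.8% in the MS+EA rats and at most 0.183% in any other rat. Their summed level was 32, 34.1 and 29.3 CPM in MS rats, 47.9, 38 and 42.4 CPM in MS+EA rats and 47.6, 39.2 and 41.8 CPM in Control rats. The sum was thus higher in each treated rat than in each MS rat and overlapped with Control. Of the 26 histone genes tested, 2 were higher at an unadjusted p under 0.05, Hist2h4a and Hist1h2an (log2 fold change 0.62, edgeR adjusted p = 0.3005), and 0 were lower.

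**Figure D2:**
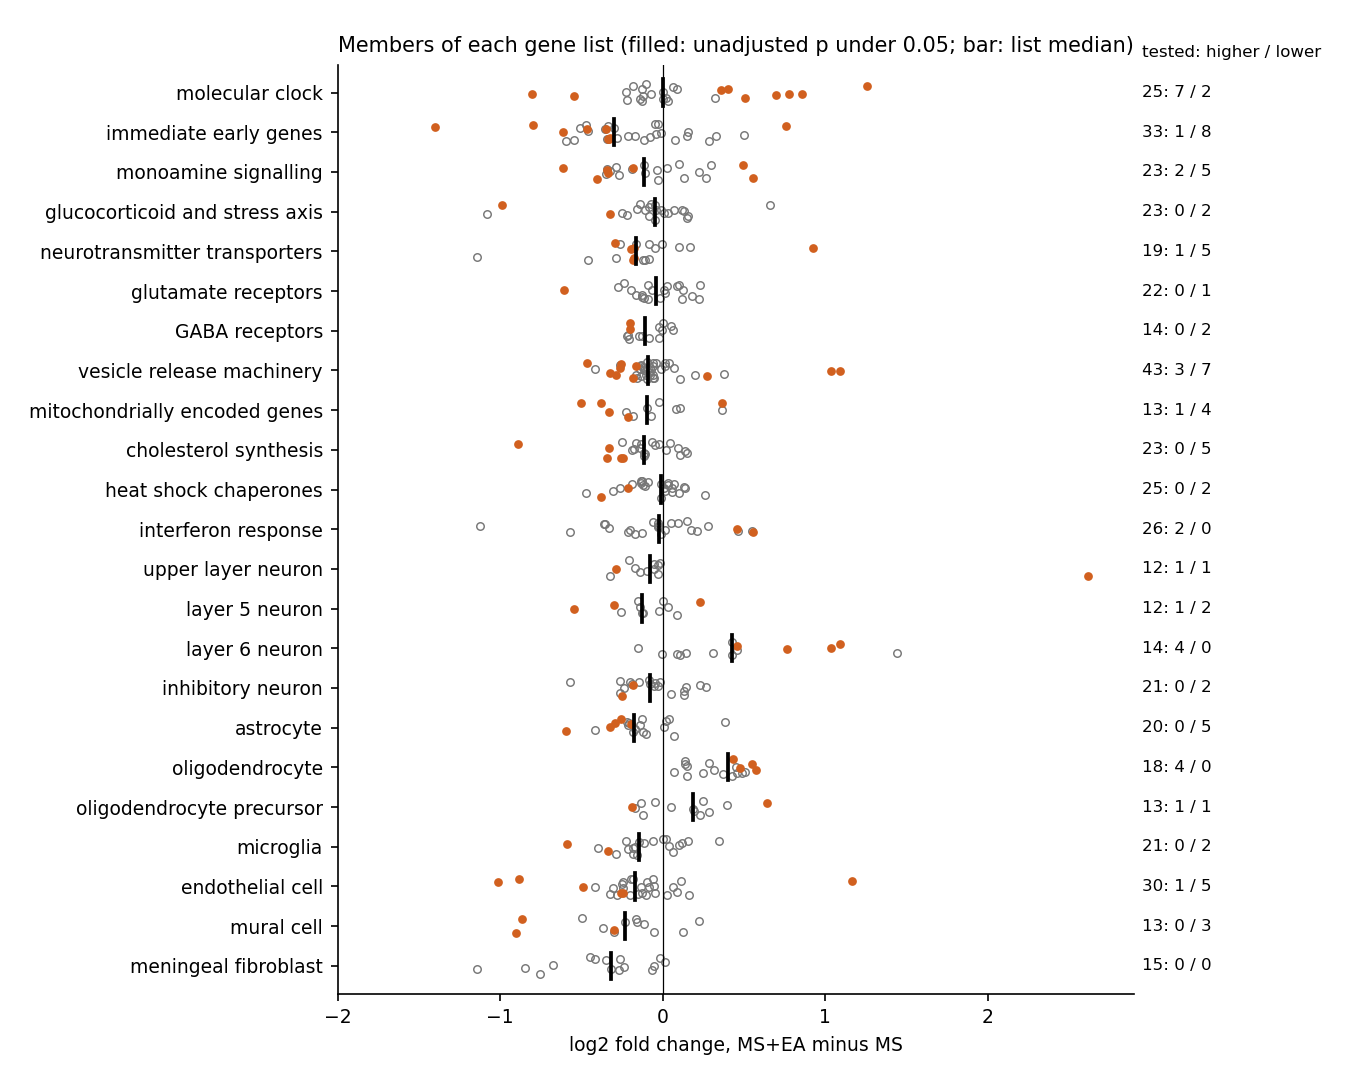
Gene lists in MS+EA relative to MS rats. Each point is a gene at its log2 fold change on the horizontal axis, filled at an unadjusted p under 0.05, and the bar is the list median. The numbers on the right give the members tested and those higher and lower at that limit. Layer 6 and oligodendrocyte markers have medians of 0.43 and 0.40, and immediate early genes have -0.30.

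Cell type markers were used to ask which cells of the cortex the differences fell on. In bulk tissue, fewer cells of a type and less RNA per cell cannot be told apart. Markers of layer 6 neurons, which project to the thalamus and include the deep subplate-derived cells, were mostly higher. Of 14 tested, 12 had a positive log2 fold change, 4 (28.6%) were higher at an unadjusted p under 0.05 and 0 lower, with a median of 0.43. Without B4 the median was 0.25 with the same 4 and 0. The study named Cplx3 and Syt6, 2 of these 4 genes, so they are not independent evidence for the list. Cplx3, a complexin that acts on the vesicle fusion machinery and marks the deepest cortical cells, was at 4.26, 3.94 and 4.69 CPM in MS rats, 8.74, 8.18 and 10.6 CPM in MS+EA rats and 6.85, 7.87 and 5.72 CPM in Control rats (log2 fold change 1.09, SE 0.178, edgeR adjusted p = 0.103). Syt6, a synaptotagmin, was at 6.88, 4.57 and 4.51 CPM, 10.3, 8.91 and 13.7 CPM and 8.14, 9.09 and 8.58 CPM in these groups (log2 fold change 1.04, SE 0.203, edgeR adjusted p = 0.184). For both genes the MS rats lay below all treated rats. For Syt6 this is opposite to the study's text on single genes, which lists it with genes raised in MS and reversed by EA. The study's discussion, however, assigns Cplx3 and Syt6 to Gene Ontology (GO) terms that its table places with those downregulated in MS. Sulf1, an enzyme that trims sulfate from heparan chains, was at 16.2, 14.8 and 18.2 CPM in MS rats, 33.2, 24.7 and 25.7 CPM in MS+EA rats and 25.3, 29.6 and 18.2 CPM in Control rats (log2 fold change 0.76, SE 0.171, edgeR adjusted p = 0.184), and Rprm, a p53 target used as a layer 6 marker, had a log2 fold change of 0.46, edgeR adjusted p = 0.394. The transcription factors that define the layer showed smaller or less certain differences, with log2 fold changes of 0.43 for Foxp2, 0.09 for Tle4 and 0.11 for Tbr1, none of them at an unadjusted p under 0.05. The summed level of the 14 genes overlapped between the groups, at 493, 459 and 507 CPM in MS rats and 489, 572 and 538 CPM in MS+EA rats.

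Markers of the other layers had medians below 0. Of 12 upper layer markers, 1 was higher (Cartpt, with most of its signal in C3) and 1 lower (Lamp5, log2 fold change -0.29), with a median of -0.08. Of 12 layer 5 markers, Bcl11b was higher (log2 fold change 0.23) and Fezf2 (-0.30) and Parm1 (-0.54) were lower, with a median of -0.13. Bcl11b and Fezf2 are both transcription factors of the subcortically projecting neurons of that layer. Of 21 inhibitory neuron markers, Pvalb, the calcium buffer of fast-spiking interneurons (-0.25), and Slc32a1, the vesicular GABA transporter (-0.18), were lower and 0 were higher.

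Oligodendrocytes wrap axons in myelin, and their markers shared a sign. All 18 had a positive log2 fold change, with a median of 0.40, and 4 (22.2%) were higher at an unadjusted p under 0.05. These were Mog, a surface protein of myelin, at 26.2, 18.9 and 24.1 CPM in MS rats, 45.8, 25.1 and 32.4 CPM in MS+EA rats and 34.4, 32.9 and 24.3 CPM in Control rats (log2 fold change 0.58, SE 0.202, edgeR adjusted p = 0.2998), and Ermn, Ugt8 and Tspan2, with log2 fold changes of 0.55, 0.47 and 0.43. Tspan2 was the member whose groups did not overlap, at 76.2, 64.2 and 80.7 CPM in MS rats and 115, 90.9 and 93.2 CPM in MS+EA rats. The myelin gene Mbp (0.45, edgeR adjusted p = 0.492) did not pass. The numbers depended strongly on single rats, at 9 and 0 without B3, 1 and 0 without B4, 2 and 0 without B6, 1 and 0 without C3, 14 and 0 without C10 and 2 and 0 without C16. The summed level of the list was 3535, 2359.6 and 2748 CPM in MS rats, 5027, 2580.0 and 3725 CPM in MS+EA rats and 3924, 3396 and 2639 CPM in Control rats. C3 and C16 thus lay above and C10 within the range of the MS rats. Without C3 the median was 0.17. Among 13 precursor markers, Bcas1 was higher (0.64) and Tnr lower (-0.19), with a median of 0.19 that was -0.01 without C3 and -0.02 without C16.

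Astrocytes clear glutamate and supply the local angiotensinogen of the brain. Of 20 astrocyte markers, 0 were higher and 5 (25.0%) lower at an unadjusted p under 0.05, with a median of -0.17. Agt, which encodes angiotensinogen, was at 56.9, 52.9 and 53.3 CPM in MS rats, 43.4, 35.9 and 28.5 CPM in MS+EA rats and 50.04, 36.9 and 45.1 CPM in Control rats. Every MS rat lay above every rat of the other groups, with log2 fold change -0.59, SE 0.14, edgeR adjusted p = 0.197. The other lower members were Ntsr2, a neurotensin receptor (-0.32), Fgfr3, a growth factor receptor (-0.29), Mlc1, a membrane protein of the astrocyte endfeet (-0.25), and Slc1a2, the main glutamate transporter (-0.19). Gfap did not pass (0.38, edgeR adjusted p = 0.638), and its log2 fold change was -0.13 without C16. The numbers were 0 and 2 without B3, 0 and 10 without C3, 1 and 3 without C10 and 0 and 2 without C16. Of 21 microglial markers 0 were higher and 2 (9.52%) lower (C1qa -0.34 and Tyrobp -0.59), 0 and 0 without B4 and 0 and 7 without C3.

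Some vascular genes were lower. Of 30 endothelial markers, 1 (3.33%) was higher and 5 (16.7%) lower, with a median of -0.17. The numbers were 1 and 3 without B4 and 1 and 3 without C10. Cd93, a receptor on endothelial cells, was at 22.5, 24.1 and 24.2 CPM in MS rats, 13.7, 11.1 and 10.3 CPM in MS+EA rats and 12.5, 16.2 and 19.4 CPM in Control rats. The MS rats lay above all MS+EA and Control rats, and the difference missed the adjusted threshold (log2 fold change -1.01, SE 0.159, edgeR adjusted p = 0.0938). It kept an adjusted p between 0.0806 and 0.238 when single rats were left out. Cldn5, the main tight junction protein of the blood-brain barrier, was at 58.9, 60.9 and 55.4 CPM in MS rats and 50.6, 46.97 and 49.2 CPM in MS+EA rats (log2 fold change -0.25, SE 0.076, edgeR adjusted p = 0.245). Klf4, a transcription factor that responds to blood flow, was at 15.98, 14.3 and 15.1 CPM and 5.76, 8.58 and 10.3 CPM (log2 fold change -0.88, SE 0.337, edgeR adjusted p = 0.322), and Kdr and Tek, receptors for VEGF and angiopoietin, had log2 fold changes of -0.49 and -0.25. Abcg2, an efflux pump of the barrier, was the higher member at 8.81, 12.8 and 6.55 CPM in MS rats and 20.3, 31.4 and 11.2 CPM in MS+EA rats (log2 fold change 1.17, SE 0.305, edgeR adjusted p = 0.223), with overlapping groups.

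The mural cell list, of pericyte and smooth muscle genes, depended on B4. Of its 13 genes 3 were lower with all rats (Acta2 -0.87, Des -0.90 and Notch3 -0.30), and the numbers were 1 and 0 without B4, 0 and 0 without C10 and 0 and 1 without C16. Acta2 had 13.1, 44.2 and 12.1 CPM in MS rats, with B4 alone above the rest. Of the 15 meningeal genes 0 passed in either direction with all rats. Their median of -0.32 became 0.77 without B4, and 4 were then higher. Ttr, a choroid plexus gene (log2 fold change -2.33), Avp (-4.42) and Oxt (-6.69) likewise carried most of their reads in B4. Oxt was at most 1 read in each treated rat, so its MS mean was at least 26.5-fold higher than the limit of 3 counts, and that mean came mostly from B4.

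Markers of other forebrain regions included some higher genes. Of 11 striatal markers 2 were higher, Drd1 and Penk, and of 9 thalamic markers 1, Slc17a6. Of 8 markers of olfactory bulb and septum 2 were higher, Th (0.82) and Cdhr1 (1.86), and Cdhr1 reached 56.96, 9.38 and 24.5 CPM in C3, C10 and C16 against 10.1, 5.504 and 9.38 CPM in MS rats, so that C3 led it. The 7 red blood cell genes had 0 in either direction. The summed level of the striatal list was 322, 335 and 342 CPM in MS rats and 384, 348 and 321 CPM in MS+EA rats, and that of the thalamic list 81.3, 122 and 87.5 CPM and 108, 86.4 and 104 CPM. Their part in the other differences was not tested.

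**Figure D3:**
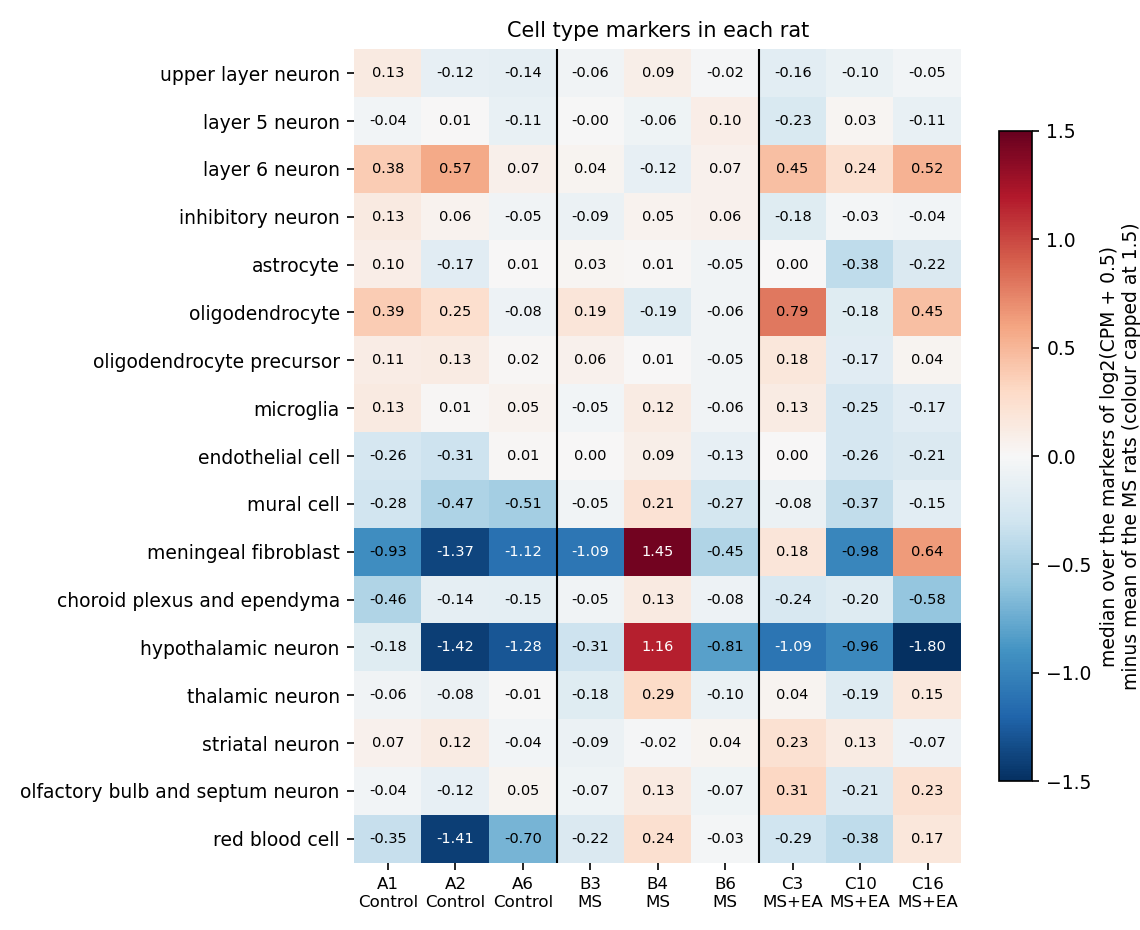
Marker lists by rat, as a heatmap of the median over each list of log2(CPM + 0.5) minus the mean of the MS rats, with rats in columns and lists in rows. B4 stands out in meningeal genes (1.45) and hypothalamic genes (1.16) and C3 in oligodendrocyte genes (0.79).

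Genes that neurons switch on within minutes of activity were mostly lower in treated rats, least so in C3. Of 33 immediate early genes tested, 1 (3.03%) was higher and 8 (24.2%) lower at an unadjusted p under 0.05. A negative log2 fold change was found for 26, and the median was -0.30 (-0.33 and -0.23 at the extremes when single rats were left out). By rat, the list median of log2(CPM + 0.5) minus the MS mean was -0.11, -0.40 and -0.23 in C3, C10 and C16. It was -0.11, 0.03 and 0.14 in B3, B4 and B6 and -0.22, 0.36 and 0.33 in A1, A2 and A6. C3 was thus level with B3, and A1 with C16. The numbers were 0 and 3 without B6 and 2 and 4 without C10. Among the transcription factors, Egr3 was at 26.4, 31.3 and 31.6 CPM in MS rats, 21.4, 17.9 and 19.2 CPM in MS+EA rats and 23.01, 29.1 and 33.1 CPM in Control rats (log2 fold change -0.61, SE 0.137, edgeR adjusted p = 0.184). All treated rats lay below all MS and Control rats for this gene. Jun was at 70.9, 67.7 and 80.1 CPM in MS rats and 53.98, 57.2 and 63.5 CPM in MS+EA rats (log2 fold change -0.32, SE 0.118, edgeR adjusted p = 0.316), and Jund at 39.1, 42.97 and 39.4 CPM and 37.5, 31.5 and 27.3 CPM (log2 fold change -0.33, SE 0.131, edgeR adjusted p = 0.332). Both encode partners of FOS in the AP-1 factor. Fos itself was at 13.5, 19.95 and 21.3 CPM in MS rats, 16.9, 5.76 and 8.74 CPM in MS+EA rats and 15.9, 32.2 and 25.7 CPM in Control rats, with C10 and C16 below and C3 within the MS range (log2 fold change -0.80, SE 0.34, edgeR adjusted p = 0.365). Nr4a1 (-0.47) and Atf3 (-1.40) were the other lower factors.

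Nr4a2 was the higher gene, at 42.9, 15.5 and 19.1 CPM in MS+EA rats against 16.5, 12.3 and 16.96 CPM in MS rats, with C10 within the MS range, and it passed the limit without C10 or C16 but not without B3, B4, B6 or C3. Among the effectors, Dusp6, a phosphatase that switches off ERK, was at 39.9, 47.2 and 51.3 CPM in MS rats and 34.5, 37.6 and 37.4 CPM in MS+EA rats (log2 fold change -0.34, SE 0.122, edgeR adjusted p = 0.315). Nptx2, a secreted protein that gathers AMPA receptors, was at 44.3, 57.04 and 48.4 CPM and 38.7, 35.2 and 43.8 CPM (log2 fold change -0.35, SE 0.114, edgeR adjusted p = 0.275), again without overlap. Other activity genes gave no clear difference. Egr1 (-0.04, edgeR adjusted p = 0.957), Arc (-0.34, edgeR adjusted p = 0.643) and Npas4 (0.50, edgeR adjusted p = 0.762) overlapped between the groups.

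Noradrenaline, serotonin and dopamine reach the frontal cortex from the brainstem, and their receptors are targets of antidepressant and stress research. Of 23 genes of monoamine signalling tested, 2 (8.7%) were higher and 5 (21.7%) lower at an unadjusted p under 0.05 (2 and 3 without B4). All 7 adrenergic receptor genes tested had a negative log2 fold change, with a median of -0.34, which was -0.13 without C16. Adra1b was at 25.6, 26.5 and 22.3 CPM in MS rats, 13.4, 17.4 and 17.96 CPM in MS+EA rats and 23.8, 21.2 and 21.9 CPM in Control rats (log2 fold change -0.61, SE 0.126, edgeR adjusted p = 0.184). The treated rats lay below all MS and Control rats, and Adra1b was among the genes that DESeq2 called downregulated. Adra1d, like Adra1b an alpha-1 receptor, was at 66.5, 67.6 and 65.8 CPM in MS rats and 47.9, 61.6 and 41.7 CPM in MS+EA rats (log2 fold change -0.40, SE 0.123, edgeR adjusted p = 0.253). The beta-1 receptor gene Adrb1 was at 26.4, 33.3 and 29.2 CPM and 25.3, 25.4 and 19.5 CPM (log2 fold change -0.34, SE 0.122, edgeR adjusted p = 0.315).

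Of 10 serotonin receptor genes, 1 was lower and 1 higher, and they were the related receptors Htr2a and Htr2c. Htr2a was at 71.96, 81.7 and 73.4 CPM in MS rats, 47.8, 67.01 and 64.5 CPM in MS+EA rats and 66.6, 60.3 and 66.3 CPM in Control rats (log2 fold change -0.34, SE 0.112, edgeR adjusted p = 0.276). Htr2c was at 8.05, 8.32 and 8.12 CPM in MS rats, 11.9, 11.4 and 11.2 CPM in MS+EA rats and 12.1, 10.9 and 7.399 CPM in Control rats (log2 fold change 0.49, SE 0.169, edgeR adjusted p = 0.293). The groups did not overlap for either gene, and neither passed the adjusted threshold. Drd1, the D1 dopamine receptor gene, was at 10.4, 10.8 and 14.01 CPM in MS rats and 20.1, 14.7 and 17.01 CPM in MS+EA rats (log2 fold change 0.56, SE 0.188, edgeR adjusted p = 0.286). Maob, which breaks monoamines down and is found in astrocytes, had a log2 fold change of -0.18, edgeR adjusted p = 0.319.

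**Figure D4:**
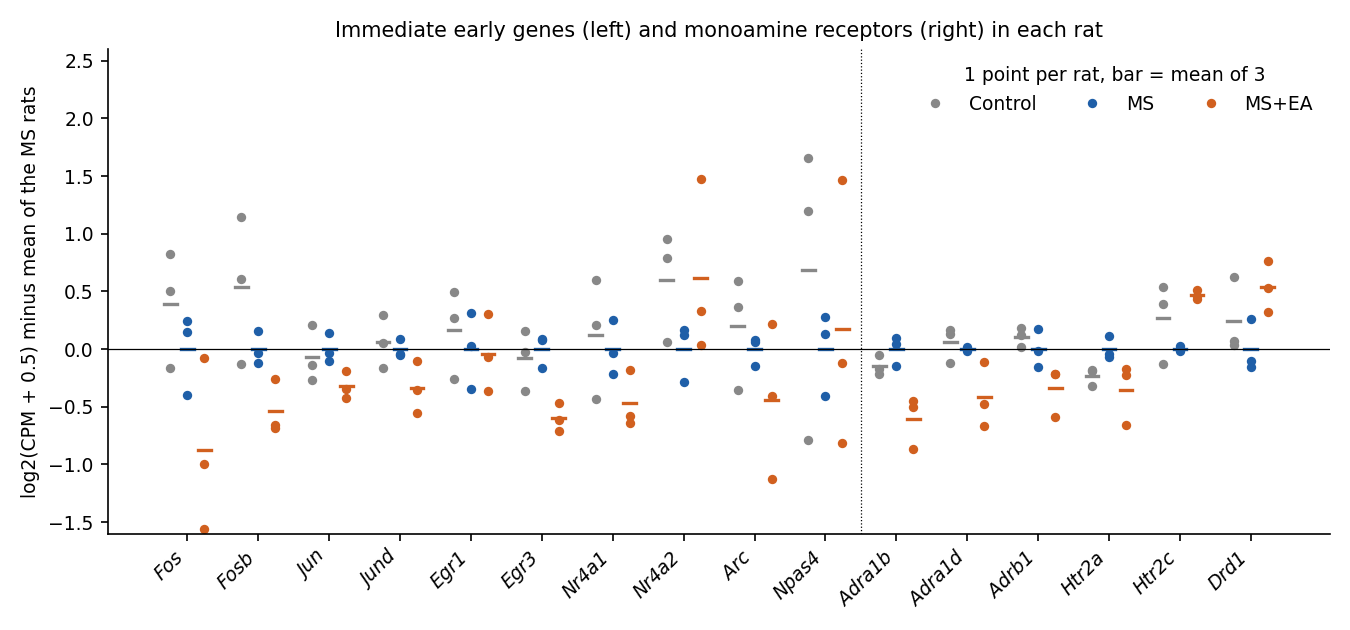
Immediate early genes and monoamine receptor genes in each rat, as log2(CPM + 0.5) minus the mean of the MS rats, with a point per rat. Short bars are means of 3 rats. Egr3 and Adra1b lie below the MS rats in all 3 treated rats, Htr2c and Drd1 lie above them, and Nr4a2 is high in C3.

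Transmitter transporters were mostly lower. Of 19 tested, 16 had a negative log2 fold change, 5 (26.3%) were lower and 1 (5.26%) higher at an unadjusted p under 0.05, and the median was -0.17. The numbers were 1 and 3 without B3, 1 and 2 without B4, 0 and 3 without C3, 1 and 2 without C10 and 1 and 1 without C16. Slc17a7, the vesicular glutamate transporter of cortical neurons, was at 1436, 1439 and 1498 CPM in MS rats, 1225, 1337 and 1304 CPM in MS+EA rats and 1635, 1532 and 1607 CPM in Control rats (log2 fold change -0.18, SE 0.0629, edgeR adjusted p = 0.303). Slc17a6, its counterpart in thalamus and brainstem, was at 5.48, 8.76 and 8.24 CPM in MS rats, 20.2, 11.8 and 10.6 CPM in MS+EA rats and 16.4, 16.1 and 8.39 CPM in Control rats (log2 fold change 0.92, SE 0.293, edgeR adjusted p = 0.26). These related genes thus lay apart in opposite directions, each without overlap. The GABA transporter Slc6a11 (-0.29) was lower with the glutamate transporter Slc1a2 and the vesicular GABA transporter Slc32a1 named above.

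The vesicle release machinery also held members that differed in opposite directions. Of 43 genes 3 (6.98%) were higher and 7 (16.3%) lower, with a median of -0.09. Beside Cplx3 and Syt6 the higher gene was Rims2, a scaffold of the active zone (0.27, edgeR adjusted p = 0.319). Cplx1, the complexin of fast synapses, was at 295, 254 and 259 CPM in MS rats and 232, 214 and 232 CPM in MS+EA rats (log2 fold change -0.26, SE 0.0716, edgeR adjusted p = 0.236), opposite in direction to Cplx3. Syt13 was at 327, 353 and 351 CPM and 282, 297 and 245 CPM (log2 fold change -0.32, SE 0.076, edgeR adjusted p = 0.197), opposite to Syt6. Stx1a, the syntaxin of the fusion complex (-0.16), Doc2b, a calcium sensor (-0.47), the priming factors Unc13a (-0.18) and Unc13c (-0.29), and Rims3 (-0.26) were lower as well. The numbers for the list were 2 and 4 without B4, 6 and 4 without C3 and 3 and 3 without C16.

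Few receptor genes for the fast transmitters passed with all rats. Of 22 glutamate receptor genes 0 were higher and 1 lower, the NMDA receptor subunit Grin3a, at 15.2, 19.01 and 22.01 CPM in MS rats and 11.2, 14.6 and 10.97 CPM in MS+EA rats (log2 fold change -0.61, SE 0.161, edgeR adjusted p = 0.226). The glutamate receptor numbers were 2 and 1 without B6, 2 and 2 without C3, 0 and 5 without C10 and 1 and 1 without C16. Their median of -0.04 was 0.01 without C3. Of 12 GABA-A subunit genes 0 passed with all rats, but 1 was lower without B3, 2 without C3 and 3 without C10. Their median of -0.06 was 0.04 without C3. The genes of the GABA-B receptor, which is built of both products together, were both lower. Gabbr1 was at 1108, 1073 and 1135 CPM in MS rats and 957, 956 and 977 CPM in MS+EA rats (log2 fold change -0.20, SE 0.0603, edgeR adjusted p = 0.249), and Gabbr2 had a log2 fold change of -0.20, edgeR adjusted p = 0.319. Potassium channels, which set resting potential and repolarisation, had 10 (13.2%) lower and 1 (1.32%) higher of 76, with a median of -0.08. The numbers, higher first, were 3 and 7 without B3, 0 and 4 without B4, 2 and 17 without C10 and 1 and 4 without C16. The lower channels included the tandem-pore leak channels Kcnk1, Kcnk3, Kcnk9 and Kcnk12 (log2 fold changes -0.17, -0.33, -0.28 and -0.45), and the higher one was Kcna6 (0.20). Of 34 sodium and calcium channel genes 2 (5.88%) were higher and 3 (8.82%) lower (0 and 9 without C10).

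Genes of the stress axis passed at a share near that of all genes tested. Of 23 genes of the glucocorticoid list, 0 were higher and 2 (8.7%) lower, with a median of -0.05. Over all genes tested 6.01% were higher and 6.42% lower. The lower genes were Hsd11b1, the enzyme that regenerates active glucocorticoid inside cells, at 37.5, 32.5 and 31.7 CPM in MS rats and 27.1, 22.8 and 31.5 CPM in MS+EA rats (log2 fold change -0.32, SE 0.126, edgeR adjusted p = 0.329), and Cdkn1a, a cell cycle inhibitor, at 11.02, 10.8 and 10.1 CPM and 5.203, 4.82 and 6.12 CPM (log2 fold change -0.99, SE 0.324, edgeR adjusted p = 0.275). The glucocorticoid receptor gene Nr3c1 (0.07, edgeR adjusted p = 0.734) and Fkbp5, a receptor chaperone that glucocorticoids induce (-0.16, edgeR adjusted p = 0.633), did not pass. Of 7 neurotrophin genes, Vgf, a secreted neuropeptide precursor, was lower at 33.1, 35.8 and 33.4 CPM in MS rats and 28.03, 22.3 and 19.2 CPM in MS+EA rats (log2 fold change -0.56, SE 0.165, edgeR adjusted p = 0.245). Bdnf, brain-derived neurotrophic factor, did not pass (-0.15, edgeR adjusted p = 0.784). Of 7 opioid genes 1 passed, Penk, the enkephalin precursor (0.46, edgeR adjusted p = 0.363).

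Cholesterol synthesis and mitochondrial respiration were described by 3 lists. Of 23 genes of cholesterol synthesis and its control, 0 were higher and 5 (21.7%) lower, with a median of -0.12 that was -0.01 without C3. The numbers were 0 and 2 without B4, 0 and 2 without B6, 1 and 3 without C3 and 0 and 3 without C10. Srebf2, the master regulator of the pathway, was at 409, 402 and 368 CPM in MS rats, 284, 332 and 315 CPM in MS+EA rats and 459, 412 and 449 CPM in Control rats (log2 fold change -0.34, SE 0.0755, edgeR adjusted p = 0.184). All 3 treated rats lay below all MS and Control rats. The enzyme genes Mvd (-0.25) and Nsdhl (-0.89) were among the other lower members. Of 13 genes encoded on mitochondrial DNA 4 (30.8%) were lower, ND1 (-0.50), CYTB (-0.38), COX1 (-0.33) and ATP6 (-0.21). Only 1 (7.69%) was higher, ND6 (0.36), which is encoded on the other strand from these. ND1 was at 2562, 1963 and 2265 CPM in MS rats, 1474, 1783 and 1539 CPM in MS+EA rats and 2237, 2238 and 2149 CPM in Control rats (log2 fold change -0.50, SE 0.0974, edgeR adjusted p = 0.184). Of 81 nuclear genes of oxidative phosphorylation 0 were higher and 3 (3.7%) lower, with a median of -0.05 that was 0.01 without C3. The numbers were 1 and 1 without B4, 0 and 7 without B6, 4 and 3 without C3, 0 and 1 without C10 and 0 and 8 without C16.

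The remaining lists stand beside shares of 6.01% higher and 6.42% lower over all genes tested. The angiotensin list had 2 lower of 7 (28.6%), Agt and Lnpep (-1.25). Of 26 interferon response genes 2 (7.69%) were higher, Oas1b (0.56) and Herc6 (0.46). Of 25 heat shock genes 2 (8.0%) were lower, Hspa5 (-0.21) and Hspb8 (-0.38). Among large families, 1 (1.27%) of 79 cytoplasmic ribosomal protein genes was higher and 6 (7.59%) were lower. These numbers were 2 and 3 without B4, 2 and 12 without C3, 0 and 3 without C10 and 0 and 3 without C16. Of 70 mitochondrial ribosomal protein genes 2 (2.86%) were higher and 3 (4.29%) lower (2 and 1 without B4). Of 37 proteasome genes 0 were higher and 1 (2.7%) lower, and of 31 kinesins 2 (6.45%) and 2 (6.45%). Of 76 cadherins and protocadherins 3 (3.95%) were higher and 4 (5.26%) lower (5 and 3 without C3, 3 and 10 without C10 and 2 and 2 without C16). Of 236 zinc finger genes named Zfp 13 (5.51%) were higher and 7 (2.97%) lower (13 and 4 without B3, 9 and 4 without B4 and 8 and 11 without B6). Of 22 MHC genes 2 (9.09%) were higher and 4 (18.2%) lower (4 and 4 without B3, 1 and 1 without B4 and 0 and 2 without B6). Of 34 collagens 4 (11.8%) were higher, among them Col6a1 (0.63) and Col11a1 (0.90), and 0 lower. Their median was 0.15, and 0.43 without B4 (1 and 0 without B6).

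Non-coding genes were more often higher than lower in treated rats. Of 2146 genes typed as lncRNA, ncRNA or miscRNA, 261 (12.2%) were higher and 35 (1.63%) lower at an unadjusted p under 0.05, with a median log2 fold change of 0.19. Of 14575 mRNA genes, 741 (5.08%) were higher and 1046 (7.18%) lower, with a median of -0.01, which turned to 0.01 and 0.03 when library sizes were taken over mRNA genes or as total counts. The balance of mRNA genes turned as well, to 969 higher and 780 lower with the first scaling and 1196 and 621 with the second, and it was 637 and 602 without B4. Without B4 the non-coding numbers were 152 higher and 20 lower, and without C10 163 higher and 64 lower. These genes held 1.85%, 1.7% and 1.75% of all counts in MS rats, 2.04%, 2.13% and 1.9% in MS+EA rats and 1.62%, 1.81% and 1.81% in Control rats. Each treated rat lay above each other rat. The means of MS and MS+EA rats were 1.77% ± 0.0796 and 2.03% ± 0.114 (SD, n = 3 each; exact two-sided permutation p = 0.1, the smallest that 3 against 3 can give). The treated libraries were also the shallower ones, and the part of depth in this share was not tested. After all libraries had been thinned to the smallest total, 246 non-coding genes were higher and 23 lower. Thinning equalises totals but keeps the make-up of each library on average, so it cannot test what went with the shallower libraries.

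The lncRNAs with the smallest p were LOC103691152, at 4.32, 3.94 and 4.39 CPM in MS rats and 10.3, 14.2 and 8.43 CPM in MS+EA rats (log2 fold change 1.38, SE 0.247, edgeR adjusted p = 0.159), and LOC102549590, at 27.3, 18.8 and 22.01 CPM and 42.9, 37.9 and 33.1 CPM (log2 fold change 0.74, SE 0.143, edgeR adjusted p = 0.184). Neither overlapped between the groups or, with Control values of 3.43, 4.21 and 6.47 CPM and 21.1, 23.3 and 26.4 CPM, between treated and Control rats. LOC103693414 (1.43) and LOC103691333 (0.73) followed with log2 fold changes of the same sign. Among well known non-coding RNAs, 3 were tested, and Miat, Snhg11 and Gas5 were all higher at an unadjusted p under 0.05, with log2 fold changes of 0.34, 0.39 and 0.43. The numbers were 0 and 0 without B4, 1 and 0 without B6, 0 and 0 without C3 and 1 and 0 without C10.

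**Figure D5:**
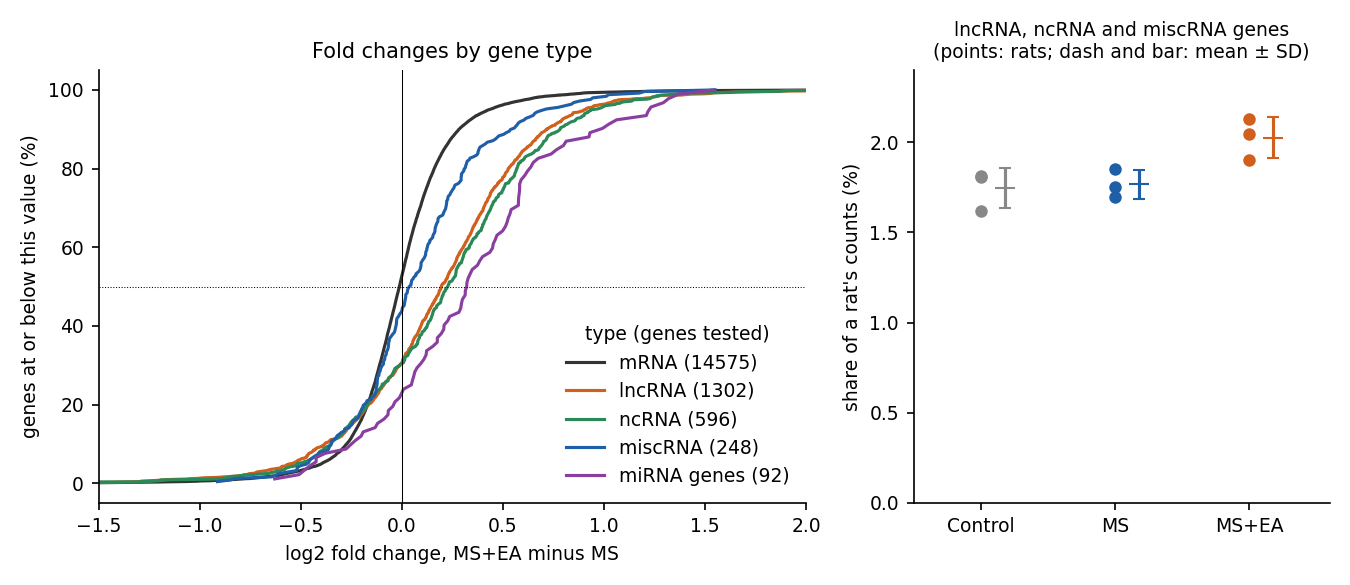
Left, the cumulative share of genes of each type against the log2 fold change in MS+EA relative to MS rats. Right, the percent of counts on lncRNA, ncRNA and miscRNA genes in each rat, with the mean ± SD of each group. The medians of the lncRNA and ncRNA genes are 0.20 and 0.23 against -0.01 for mRNA, and the share is between 1.9% and 2.13% in MS+EA rats against at most 1.85% in MS rats.

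Genes of microRNA precursors were mostly higher too. Of 92 tested, 71 had a positive log2 fold change, 10 (10.9%) were higher and 0 lower at an unadjusted p under 0.05, and the median was 0.32. The numbers were 6 and 0 without B6, 6 and 1 without C3 and 6 and 0 without C10. Their reads come from a library of long RNA and stand for primary transcripts or host transcripts, so mature microRNAs were not measured. The mature products of 9 of these 10 genes are in RefSeq, and the sequences below, on build GRCr8 with the seed (bases 2 to 8) in capitals, show what the loci encode. No seed was shared among the 15 mature sequences of these genes, so they do not form a seed family.
rno-miR-485-5p, chr6:134571076-134571097, plus strand: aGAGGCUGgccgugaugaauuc
rno-miR-485-3p, chr6:134571115-134571136, plus strand: cAUACACGgcucuccucucuuc
rno-miR-154-5p, chr6:134574366-134574387, plus strand: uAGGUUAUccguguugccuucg
rno-miR-154-3p, chr6:134574402-134574423, plus strand: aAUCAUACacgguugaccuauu
rno-miR-539-5p, chr6:134563606-134563627, plus strand: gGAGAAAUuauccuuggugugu
rno-miR-539-3p, chr6:134563646-134563667, plus strand: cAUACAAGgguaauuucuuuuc
rno-miR-668, chr6:134570949-134570972, plus strand: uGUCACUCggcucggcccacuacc
rno-miR-770-5p, chr6:134298094-134298115, plus strand: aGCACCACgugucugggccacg
rno-miR-128-3p, chr8:120963807-120963827, minus strand: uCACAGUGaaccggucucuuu
rno-miR-384-5p, chrX:74490939-74490961, minus strand: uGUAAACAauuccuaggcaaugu
rno-miR-219b, chr3:33516519-33516540, plus strand: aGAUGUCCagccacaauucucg
rno-miR-3562, chr10:105848002-105848023, minus strand: uUGGGGCAguggcuggauggga

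Of these genes 5, namely Mir485, Mir154, Mir539, Mir668 and Mir770, lie in the imprinted cluster on chromosome 6, whose microRNAs are expressed from the maternal chromosome. Mir485 had 6, 9 and 11 reads in MS rats, 19, 20 and 25 reads in MS+EA rats and 17, 9 and 6 reads in Control rats (log2 fold change 1.54, SE 0.435, edgeR adjusted p = 0.237). Mir539 had 35, 29 and 21 reads, 45, 53 and 39 reads and 38, 68 and 39 reads (log2 fold change 0.93, SE 0.312, edgeR adjusted p = 0.285). The treated rats lay above the untreated ones for both, on few reads. Between Mir770 and Mir154 (chr6:134298084-134574435 on GRCr8, bounds taken after the values had been seen), 27 microRNA genes were tested, of which 24 had a positive log2 fold change and 5 were higher and 0 lower at an unadjusted p under 0.05, with a median of 0.51. The other 57 microRNA genes tested that have a position in the RefSeq table had 41 positive, 4 higher and 0 lower, with a median of 0.29, and the remaining 8 have none there. Of the higher genes placed elsewhere, Mir128-2 had a log2 fold change of 1.32, Mir384 1.06, Mir2964 1.37 and Mir3562 0.74. Mir6318, for which neither a position nor a mature sequence is printed, had 0.99.

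A few further genes stood out by size and separation. Ucp3, a mitochondrial uncoupling protein best known from muscle, had 43, 22 and 23 reads in MS rats, 1, 6 and 5 reads in MS+EA rats and 2, 4 and 0 reads in Control rats. Each MS rat held more reads of Ucp3 than any other rat (log2 fold change -2.58, SE 0.623, edgeR adjusted p = 0.205). The study's text lists Ucp3 with genes lowered in MS and reversed by EA, the opposite direction. Its table of GO terms, however, places uncoupler activity with the terms upregulated in MS. LOC102555167, an uncharacterised gene typed as mRNA, was at 13.8, 11.01 and 10.2 CPM in MS rats, 7.56, 6.701 and 7.39 CPM in MS+EA rats and 7.71, 7.01 and 8.27 CPM in Control rats (log2 fold change -0.69, SE 0.154, edgeR adjusted p = 0.184). Tnfrsf11a, which encodes RANK, the receptor for RANKL, was at 7.29, 8.19 and 6.67 CPM, 11.7, 10.99 and 13.6 CPM and 10.01, 9.45 and 10.6 CPM (log2 fold change 0.71, SE 0.141, edgeR adjusted p = 0.184). LOC100359752, listed in RefSeq as C18h18orf63, had a log2 fold change of 1.72, edgeR adjusted p = 0.184.

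On the lower side, Parvb, an actin-binding protein of focal adhesions, was at 109, 99.9 and 92.8 CPM in MS rats, 77.01, 62.4 and 60.6 CPM in MS+EA rats and 99.6, 80.8 and 83.7 CPM in Control rats (log2 fold change -0.59, SE 0.107, edgeR adjusted p = 0.159). Vwa5b1 was at 8.81, 11.9 and 11.2 CPM in MS rats and 3.89, 6.83 and 3.34 CPM in MS+EA rats (log2 fold change -1.17, SE 0.239, edgeR adjusted p = 0.184). Both lay below every Control rat as well as every MS rat in all treated animals. Calhm2, a member of a family of calcium homeostasis channels (-0.65), Klhdc7a (-0.90) and Pih1d1, a subunit of a chaperone complex (-0.81), completed the 12 genes with the smallest p on this side, together with Cd93, Arntl, Adra1b, Egr3, Agt, LOC102555167 and Oxt. All 12 were typed as mRNA, whereas 4 of the 12 on the higher side were non-coding.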

How the data were processed

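The frontal cortex of 9 rats (3 Control, 3 MS and 3 MS+EA) was analysed as deposited: per the labels and the paper's methods, the authors extracted total RNA with Trizol, removed rRNA, sequenced the libraries and mapped the reads to Rnor_6.0 with HISAT2 2.0.4 (submitters' processing notes). The deposited values are whole-number counts of reads per gene, not normalized. The counting program, its strand setting and its treatment of reads with several locations are not given in the sources used here, so near-identical, overlapping and antisense genes are uncertain. All columns were used (0 left out).

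Here counts were scaled by TMM, filtered by filterByExpr (minimum count 10) and fitted with edgeR 4.0.16 (R 4.3.3) in 1 quasi-likelihood model with a mean for each of the 3 groups. The contrast MS+EA minus MS was tested by the quasi-likelihood F test with Benjamini-Hochberg adjustment over all 16837 genes tested. The thresholds, an adjusted p of 0.05 and a fold change of 1.5, are those the study gives for EBSeq, which edgeR replaced. The biological coefficient of variation was 12.7%. Single values were compared by an exact permutation test. On simulated counts edgeR recovered 76 of 100 genes changed by 1 on the log2 scale and 97 of 100 changed by 2, with 6 false calls over both (16611 genes run). The simulation gave genes a spread set by their mean level alone. It changed only genes above 1 CPM and held no outlying rat, so recovery in these data was not measured. No replicate pair agreed within counting noise.

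Genes were grouped in 33 marker and pathway lists and 13 name families, chosen, like all members and tests, with earlier results of these data known. They are described by counts and medians without a set test. Genes named are those past both thresholds, the 12 in each direction with the smallest p among those above 1.5-fold that did not overlap and averaged at least 20 counts, list members at an unadjusted p under 0.05 or needed to account for a list, genes the study names, and genes with over 80% of their reads, and at least 100, in 1 rat. Members of the families, the other histone H4 genes and microRNA genes were chosen after their values were seen. Alternatives were DESeq2 1.42.0, bias-adjusted deviances, RLE, total-count or mRNA scaling, stricter and looser filters, thinned counts, a fit of the 6 rats and the omission of each rat. Some list members are counted but not reported here by name. Sequences are from RefSeq (GRCr8), matched by symbol. Tables and plots used Python 3.11.15, pandas 2.3.3 and matplotlib 3.10.9.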

Additional observations from a re-analysis of the deposited data

How the results depend on the processing

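The number of genes upregulated past both thresholds, 3 as reported, was 8 with DESeq2, 45 with a filter of at least 1 count in any rat, 0 with at least 10 counts in every rat, 1 with bias-adjusted deviances, 1 in a fit of the 6 rats, and between 1 and 3 when single rats were left out. The number downregulated, 0 as reported, was 6 with DESeq2, 27 with at least 1 count in any rat, 1 with thinned counts (Cd93), and between 0 and 2 when single rats were left out. The number lower at an unadjusted p under 0.05, 1081 as reported, was 647 with total counts and between 628 (without B4) and 1107 when single rats were left out, so counts of lower list members depend on scaling and on B4. Dbp and Per3 lost their call with at least 10 counts in every rat, with bias-adjusted deviances, in the fit of the 6 rats and without B3, B4, B6 or C16, and Per3 also without C3. Hist2h4a was not tested under the stricter filter. The cause of these differences was not tested, except that a filter changes which genes are tested.

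The scalings moved the median of all genes by at most 0.0426 on the log2 scale. Of the list medians, 1033 values under the alternatives stayed within the spread between rats and 61 moved further. A change of sign occurred 67 times, 58 of them in lists whose median lay within 0.1 of 0. For named genes, 2131 values kept their direction and their side of the threshold, 44 passed a threshold they had missed, 15 no longer passed, and 11 reversed. The reversed values belong to 6 genes that were not called. When single rats were left out, the log2 fold change of Acta2 lay between -1.18 (without B6) and 0.0122 (without B4), that of Egr1 between -0.23 (without C3) and 0.13 (without B6; 0.108 without C10), that of Gfap between -0.13 (without C16) and 0.66 (without C10), that of Npas4 between -0.46 (without C3) and 0.88 (without C16), that of Hist2h4 between -0.0652 (without C3) and 0.0871 (without C10), and that of Tef between -0.0336 (without C16) and 0.0394 (without B3). Egr1 was also at 0.00734 with total counts. DESeq2 gave no adjusted p for 60 named genes. No paired analysis was possible because each group consists of other animals, the labels pair none of them, and MS and MS+EA rats share only the number 3. With 3 rats a group and 12479905 counts in the smallest library, the fold changes of genes with few reads carry wide errors (SE 0.435 for Mir485 and 0.115 for Dbp).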
